A study of Mus musculus with 6 samples.

Results

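The inward rectifier potassium channel genes described here are Kcnj10, Kcnj13, Kcnj16, Kcnj2, Kcnj12, Kcnj14 and Kcnj15, measured in RNA of stria vascularis, from the lateral wall of the cochlea, of mice at postnatal day 10. They were taken as every probe set (a group of short probes for a transcript) whose platform gene symbol was exactly one of these 7 names, which gave 10 of the 45037 probe sets that are not controls. The 7 genes are among 18193 named genes on the array. The arrays came from 3 Slc26a4 knockout samples (replicates 2, 4 and 6) and 3 Slc26a4 heterozygous samples (replicates 1, 3 and 5), so that both groups carry the altered allele. Slc26a4 encodes pendrin, which exchanges chloride, iodide and bicarbonate in epithelia of the inner ear, the thyroid and the kidney. The labels name no strain and do not say whether an array was 1 animal or a pool, so a p-value covers only the spread between these samples, which may be technical.

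Inward rectifiers are potassium channels that pass current into the cell more easily than out of it, and they hold the resting potential close to the potassium equilibrium potential. In the stria vascularis the channel made of KCNJ10 protein sits in the intermediate cells, which are melanocytes lying between the marginal and the basal cell layers, and it generates the endocochlear potential on which hearing depends. Loss of KCNJ10 protein from the stria has been described in mice lacking pendrin, and the arrays measure RNA, before the onset of hearing.

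The genotype labels were checked on the targeted gene, and 1 array stood apart from the others. Slc26a4 gave signals of 75.5, 106 and 154 in knockout samples, against 221, 248 and 1006 in heterozygous samples, with no overlap, although the fit did not call it (limma adjusted p = 0.370). Whether its probe set lies within the deleted stretch is not given in the sources used here. Knockout replicate 4 had a median distance to the other arrays of 0.709 (root mean square difference on the log2 scale over tested probe sets), where the other 5 arrays had 0.397 to 0.468. Precision throughout is limited by having 3 arrays a group.

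Kcnj10, Kcnj13 and Kcnj16 were the members with a signal high enough to test, on 4 probe sets. Each of the 4 had a lower mean in knockout samples, and none passed the test across the whole table. The fit was made with limma on log2(signal + 16), with Benjamini-Hochberg adjustment over 27022 probe sets. Of the 4 probe sets, 0 had an adjusted p under 0.05 (0.0037% of all tested probe sets did) and 1, that of Kcnj13, had an unadjusted p under 0.05 (11.6% of all tested probe sets did, 2.47% being lower in knockout samples). The groups overlapped on all 4, whereas they did not overlap on 17.0% of all tested probe sets. The median log2 difference was -0.85 over the 4 probe sets and -0.004 over all tested, and 50.6% of all tested lay below 0. The median of the 4 was -0.37 without heterozygous replicate 5, -0.55 without knockout replicate 2 and -1.19 without heterozygous replicate 1. The 4 probe sets stand for 3 genes and share the same 6 arrays. Without knockout replicate 4, the array that stood apart, the log2 differences were -0.37 for Kcnj10, -0.515 for Kcnj13 and -1.28 and -1.15 for the Kcnj16 probe sets, and the 1 with an unadjusted p under 0.05 was that of Kcnj10.

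**Figure D1:**
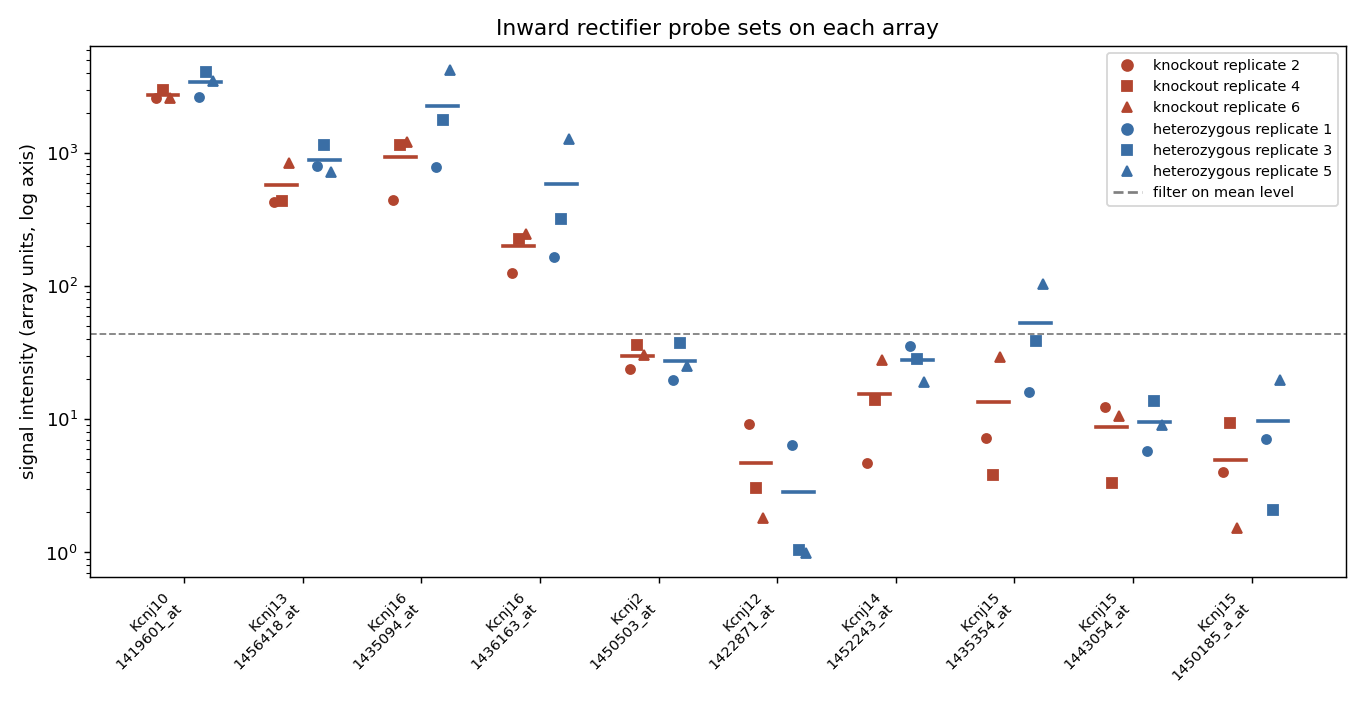
Signal intensity (log axis) of the 10 inward rectifier probe sets on each of the 6 arrays, with knockout samples in red and heterozygous samples in blue; a horizontal bar is the mean of 3 arrays, and the dashed line is the level of the filter, at a signal of about 43.9. The 2 Kcnj16 probe sets are highest in heterozygous replicate 5, at 4214 and 1274.

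Kcnj10 encodes the principal channel subunit of the strial intermediate cells, and it is also made in glia. Its only probe set gave signals of 2586, 2962 and 2602 in knockout samples, against 2634, 4084 and 3488 in heterozygous samples. Heterozygous replicates 3 and 5 were above every knockout sample, while heterozygous replicate 1 lay among them. The means were 2717 ± 213 in knockout and 3402 ± 728 in heterozygous samples (SD, n = 3 each), so that the spread was 7.83% of the mean in knockout samples and 21.4% in heterozygous samples. Knockout samples stood at 0.811-fold of heterozygous samples, a log2 difference of -0.30 (standard error 0.16) that the test did not call (limma adjusted p = 0.486). The 95% interval of the difference, from -0.65 to 0.05, runs from 0.636-fold to 1.03-fold. No change lies inside that interval, and levels under 0.636-fold lie outside it, but both statements hold only for the fit with all arrays. The interval ran from -0.78 to -0.17 without heterozygous replicate 1, and from -0.52 to 0.20 without heterozygous replicate 3. Without heterozygous replicate 1 the log2 difference was -0.47, and without heterozygous replicate 3 it was -0.16.

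Kcnj13 encodes a weakly rectifying channel known from the pigment epithelium of the retina and the choroid plexus. Its probe set gave signals of 429, 440 and 847 in knockout samples, against 798, 1146 and 717 in heterozygous samples. Knockout replicates 2 and 4 were the low arrays, and knockout replicate 6 was above heterozygous replicates 1 and 5. The means were 572 ± 238 in knockout and 887 ± 228 in heterozygous samples (SD, n = 3 each). This was 0.632-fold, a log2 difference of -0.66 (standard error 0.28, 95% interval from -1.29 to -0.03). Its unadjusted p of 0.0409 and its limma adjusted p of 0.410 left it short of the threshold, and 10.0% of all tested probe sets had a smaller p. Without knockout replicate 6 the log2 difference was -0.97, and without heterozygous replicate 3 it was -0.46.

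**Figure D2:**
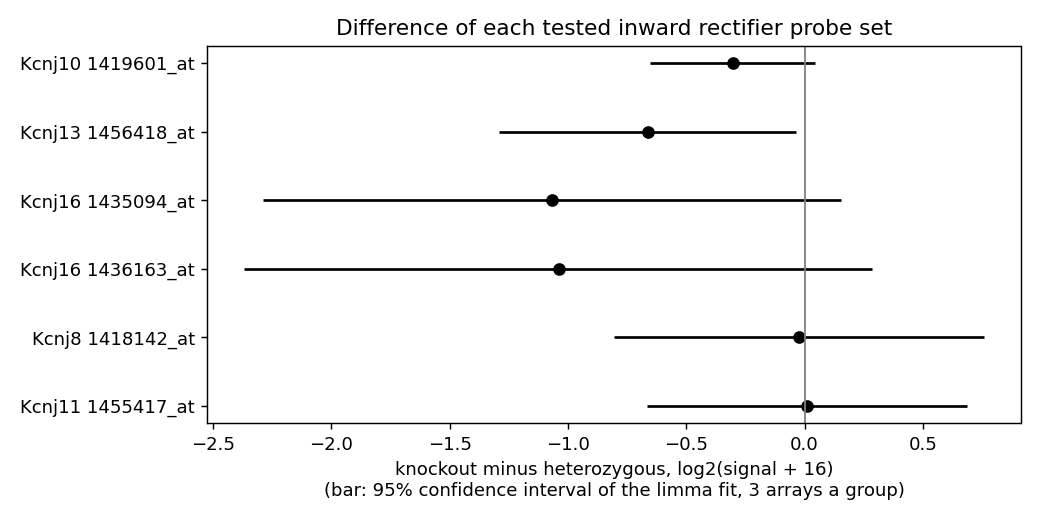
Log2 difference, knockout minus heterozygous, of the 6 inward rectifier probe sets past the filter, with the 95% confidence interval of the limma fit (3 arrays a group). Kcnj13 has an interval that ends just below 0, the Kcnj16 intervals are the widest, and Kcnj8 and Kcnj11, which are not among the 7 genes, lie near 0.

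The sequences upstream of Kcnj10 and Kcnj13 are shown because both genes were listed here as intermediate cell and melanocyte genes. Both also had their highest array in heterozygous replicate 3 and their lowest in knockout replicate 2. These whole-tissue arrays do not show which cells the signal came from. The sequences are the 250 bases before the transcript start from RefSeq, build GRCm38.p6, at chr1:172340960-172341209 on the plus strand for Kcnj10 and at chr1:87394730-87394979 on the minus strand for Kcnj13. Capitals mark matches to 3 motifs, searched on both strands and chosen with the sequences in view: TCATGTG, a form of the M-box bound by the melanocyte factor MITF, TATAAA, the TATA box, and GGGCGG, the GC box.
Kcnj10: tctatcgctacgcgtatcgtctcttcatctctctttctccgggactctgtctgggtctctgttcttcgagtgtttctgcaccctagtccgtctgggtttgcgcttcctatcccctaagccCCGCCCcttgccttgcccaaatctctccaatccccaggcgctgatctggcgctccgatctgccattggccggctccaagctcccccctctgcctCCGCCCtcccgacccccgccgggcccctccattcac
Kcnj13: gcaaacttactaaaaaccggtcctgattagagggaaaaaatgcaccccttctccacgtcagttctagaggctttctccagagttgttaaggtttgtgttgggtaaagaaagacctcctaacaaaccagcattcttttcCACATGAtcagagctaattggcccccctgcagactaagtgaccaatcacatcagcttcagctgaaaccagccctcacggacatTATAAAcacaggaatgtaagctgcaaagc
The Kcnj13 window holds the reverse complement of TCATGTG, beginning at -112 from the start, and TATAAA at -29. The Kcnj10 window holds the reverse complement of GGGCGG at -130 and at -36. No match overlapped another. Of 32536 such windows of all genes, 3.27% hold TCATGTG, 12.3% hold TATAAA and 33.0% hold GGGCGG on either strand. The GC content was 62.0% upstream of Kcnj10 and 45.2% upstream of Kcnj13, against a median of 52.4%. A match is a stretch of letters and does not show that a factor binds there.

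The cells that carry Kcnj10 were present on every array by their markers. Of 18 intermediate cell and melanocyte genes listed, Kcnj10 and Kcnj13 included, 17 were on the array and 15 passed the filter, and Tyrp1 and Oca2 were under it. The summed signal of the 17 was 48169 to 53304 in knockout samples, against 49653 to 57768 in heterozygous samples. Levels differed widely within the list: Dct gave 9786 to 11513 over all arrays, Tyrp1 1.03 to 13.1 and Oca2 16.4 to 28.8. None of the 15 passed with adjustment over all tested probe sets, 2 had an unadjusted p under 0.05, both lower in knockout samples, and 13 lay below 0, with a median log2 difference of -0.135. Over all tested probe sets 11.6% had such a p, 2.47% being lower, and 50.6% lay below 0. The 2 were Kcnj13 and Trpm1, a cation channel of melanocytes, which gave 417, 414 and 410 in knockout samples, against 772, 1228 and 1075 in heterozygous samples. For Trpm1 the groups did not overlap, with a log2 difference of -1.25 (limma adjusted p = 0.157).

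Kcnj10 was then read relative to these markers within each array. The value is log2(signal + 16) of Kcnj10 minus the mean over the 13 tested markers other than Kcnj10 and Kcnj13. Trpm1, whose log2 difference of -1.25 was the lowest of the list, is among these 13 and lowers their mean in knockout samples. How far the value depends on Trpm1 was not tested. The value for Kcnj10 was 0.45, 0.86 and 0.42 in knockout samples, against 0.45, 0.85 and 0.72 in heterozygous samples. The groups overlapped, and the difference of -0.10 gave an exact two-sided permutation p = 0.7, where 3 arrays against 3 cannot go below 0.1. This difference was -0.24 without knockout replicate 4, -0.21 without heterozygous replicate 1 and -0.01 without heterozygous replicate 3, and lay between -0.08 and -0.02 without any of the other 3 arrays. For Kcnj13 the same value was -2.10, -1.85 and -1.19 in knockout samples, against -1.25, -0.97 and -1.54 in heterozygous samples, a difference of -0.46 (exact permutation p = 0.3). In RNA of a whole tissue, fewer cells of a type and less RNA per cell cannot be told apart. Genes of bone and cartilage, tissue of the capsule around the cochlea, moved the other way: all 7 listed were past the filter and higher in knockout samples without overlap, at an unadjusted p under 0.05 (9.14% of all tested probe sets were higher at that p and 11.0% were higher without overlap), with a median log2 difference of 1.34. Their summed signal was 12231 to 15569 in knockout samples, against 7455 to 10165 in heterozygous samples, and none passed with adjustment over all tested probe sets. Mmp9 had a heterozygous mean of 5.51 on the log2 scale, below the 5.90 of the filter. It passed through its knockout values, so its count among the 7 is no support. The list itself was chosen with earlier results of these data known, so its counts are a description and no support. The part of cell content in the Kcnj10 and Kcnj13 differences was not tested beyond these values.

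**Figure D3:**
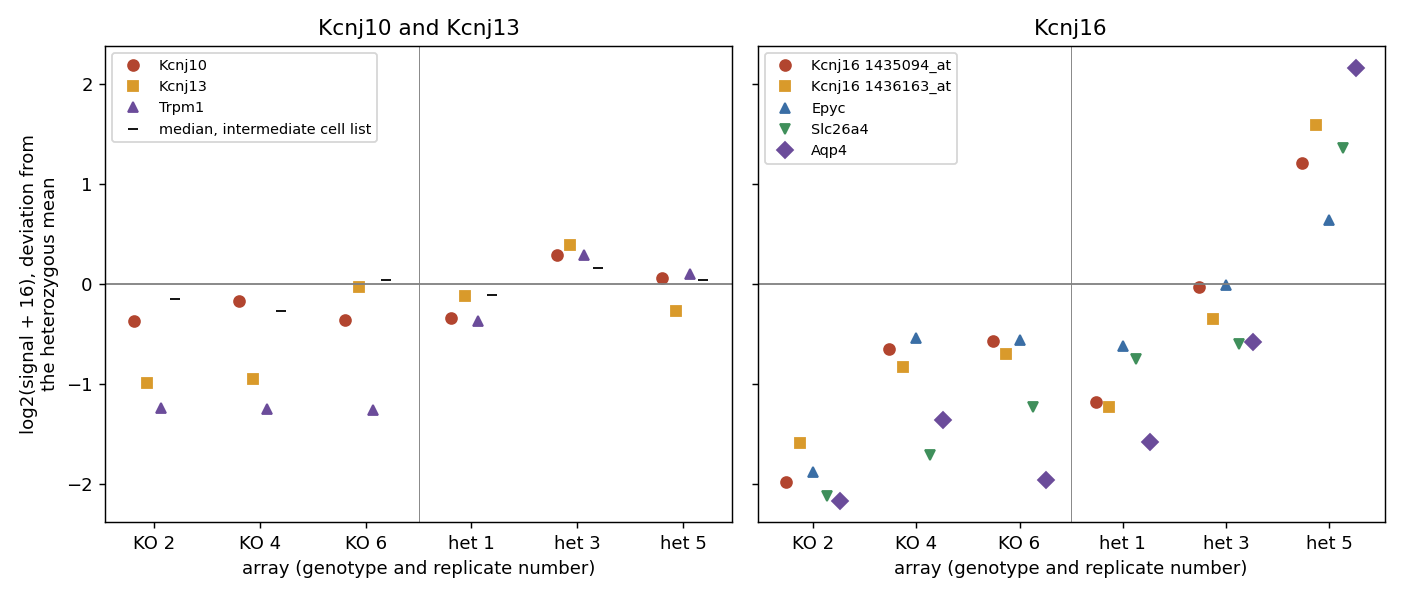
Log2(signal + 16) on each array as deviation from the heterozygous mean, with knockout samples left of heterozygous samples: Kcnj10, Kcnj13, Trpm1 and the median of the intermediate cell list on the left, and the 2 Kcnj16 probe sets with Epyc, Slc26a4 and Aqp4 on the right. The Kcnj16 probe sets run from -1.98 and -1.59 in knockout replicate 2 to 1.21 and 1.59 in heterozygous replicate 5.

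Kcnj16 encodes a subunit that joins KCNJ10 in channels sensitive to pH, and in the cochlea it is known from the lateral wall outside the intermediate cells. Its brighter probe set gave signals of 446, 1146 and 1217 in knockout samples, against 791, 1772 and 4214 in heterozygous samples. Its other probe set gave 126, 225 and 246 in knockout samples, against 166, 318 and 1274 in heterozygous samples. The same arrays were the extremes on both, with heterozygous replicate 5 the highest and knockout replicate 2 the lowest. Heterozygous replicate 1 fell below knockout replicates 4 and 6 on both.

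The means of the brighter probe set of Kcnj16 were 936 ± 426 in knockout and 2259 ± 1763 in heterozygous samples (SD, n = 3 each). On the log2 scale the difference was -1.07, standard error 0.55 (95% interval from -2.29 to 0.15, limma adjusted p = 0.483), and that of the other probe set was -1.04, standard error 0.59 (95% interval from -2.37 to 0.29, limma adjusted p = 0.531). These differences were larger than that of Kcnj10, but so was the spread between arrays. Without heterozygous replicate 5 they were -0.46 and -0.24, without knockout replicate 2 they were -0.61 and -0.77, and without heterozygous replicate 1 both were -1.66.

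Several markers of cells next to the stria, but not all, were also highest in heterozygous replicate 5. Of 6 genes listed for root, spindle and outer sulcus cells, the cells that make pendrin, all 6 were on the array, 5 passed the filter, and Lgr5 was under it. The list holds Slc26a4, the targeted gene, which was lower in knockout samples without overlap but was not called. The other 5 had a summed signal of 9938 to 12646 in knockout samples, against 11454 to 18383 in heterozygous samples. Of these, 4 were highest in heterozygous replicate 5, as were 11.1% of all tested probe sets. Lgr5 is among the 4 and, being under the filter, is outside that share. Anxa1 went the other way and was highest in knockout replicate 2. It gave 7543, 7482 and 7313 in knockout samples, against 6560, 6015 and 6893 in heterozygous samples. The groups did not overlap for Anxa1 (log2 difference 0.20, limma adjusted p = 0.390). Epyc, a small proteoglycan of the outer sulcus region, gave 1802, 4576 and 4505 in knockout samples, against 4332, 6598 and 10405 in heterozygous samples. Its lowest and highest arrays were those of Kcnj16. Among fibrocyte genes, Car3 was highest in knockout replicate 4 and Col1a2 in knockout replicate 6. The 6 fibrocyte genes on the array, of 7 listed, summed to 25954 to 28533 in knockout samples, against 19260 to 32429 in heterozygous samples. The highest sum was again in heterozygous replicate 5. Of 4 neuron genes, all on the array, Snap25 and Nefl were highest there, both under the filter, while Tubb3 and Syt1, of which Syt1 alone passed the filter, were highest in heterozygous replicate 1 (summed signal 116 to 196 in knockout samples, against 198 to 466 in heterozygous samples). The dim hair cell and erythrocyte lists also summed highest in heterozygous replicate 5. Hair cell genes summed to 74.5 to 97.2 in knockout samples, against 60.8 to 167 in heterozygous samples. Erythrocyte genes summed to 16.3 to 74.2 in knockout samples, against 41.3 to 149 in heterozygous samples. Intermediate, marginal, basal and endothelial cell lists summed highest on other arrays. The part of any of these cells in the Kcnj16 difference was not tested.

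**Figure D4:**
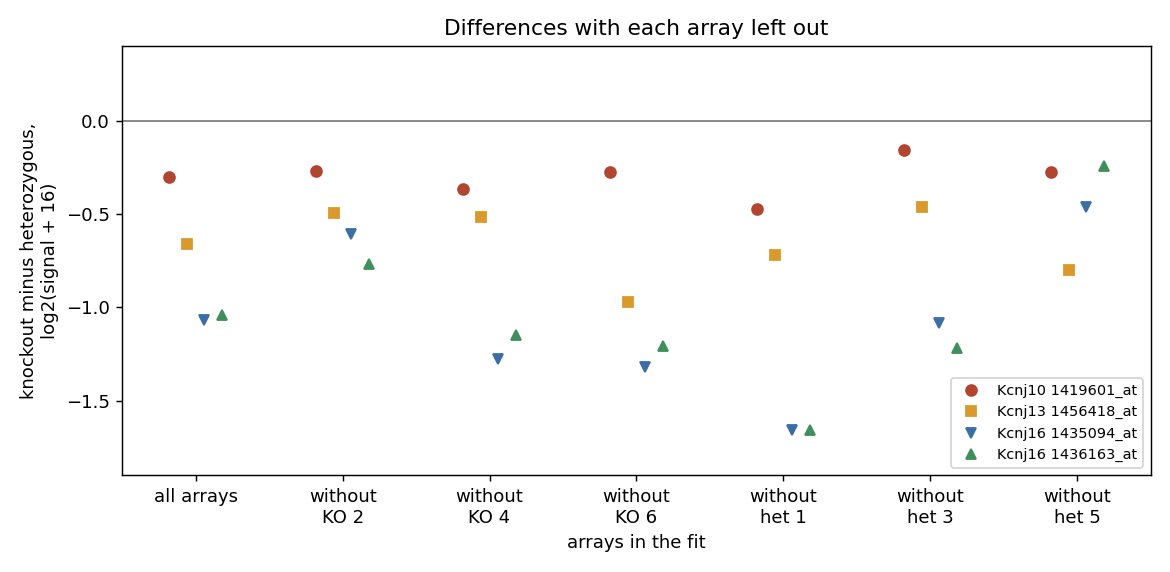
Log2 difference, knockout minus heterozygous, of the 4 tested probe sets of Kcnj10, Kcnj13 and Kcnj16 with all arrays and with each array left out in turn. All points lie below 0; Kcnj10 runs from -0.47 to -0.16, and the Kcnj16 probe sets come closest to 0 without heterozygous replicate 5.

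The other 4 genes, with 6 probe sets, did not pass the filter and have no test in the fit. Kcnj2, a strong rectifier of muscle and vessel cells, gave 23.8, 35.9 and 30.5 in knockout samples, against 19.6, 37.8 and 25.2 in heterozygous samples. The groups overlapped fully. Kcnj12, a related strong rectifier of heart and muscle, stayed between 1.80 and 9.21 in knockout samples and between 0.997 and 6.47 in heterozygous samples. Kcnj14, a strong rectifier known from neurons, gave 4.73, 14.1 and 27.8 in knockout samples, against 35.8, 28.6 and 19.2 in heterozygous samples. Its knockout values were mostly the lower ones, at levels where the probe sets of this array were not tested.

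Kcnj15 encodes a channel subunit close to KCNJ10 in sequence that can also pair with KCNJ16. Its brightest probe set gave 7.30, 3.83 and 29.4 in knockout samples, against 16.02, 39.1 and 104 in heterozygous samples. As for Kcnj16, heterozygous replicate 5 was the highest array. When all probe sets were fitted with no filter, this probe set had an unadjusted p of 0.0487 and a limma adjusted p of 0.521. The other 2 Kcnj15 probe sets stayed under 20 on every array, with log2 differences of -0.05 and -0.25, so the gene rests on 1 dim probe set.

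Other inward rectifier genes were mostly dim in this tissue. Of Kcnj1, Kcnj3, Kcnj4, Kcnj5, Kcnj6, Kcnj8, Kcnj9 and Kcnj11, all 8 were on the array, on 21 probe sets, and Kcnj8 and Kcnj11 passed the filter. Kcnj8, the pore of the ATP-sensitive channel of pericytes and smooth muscle, gave 372, 224 and 585 in knockout samples, against 441, 470 and 249 in heterozygous samples (log2 difference -0.02, 95% interval from -0.81 to 0.76, limma adjusted p = 0.986). Kcnj11, the pore of the ATP-sensitive channel of the pancreas and muscle, gave 75.5, 41.7 and 73.1 in knockout samples, against 58.3, 87.5 and 43.9 in heterozygous samples (log2 difference 0.01, limma adjusted p = 0.992). On their brightest probe sets the remaining 6 had signals no higher than the 57.1 of Kcnj1 in knockout replicate 4.

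Proteins that bind or anchor inward rectifiers showed no common direction. Of 16 listed, 15 were on the array and past the filter, 9 lay above 0 and 6 below, with a median log2 difference of 0.07. None passed with limma over all tested probe sets. An unadjusted p under 0.05 was found for 1 gene (11.6% of all tested probe sets had one, 2.47% being lower in knockout samples). That was Aqp4, a water channel that lies beside KCNJ10 in glia, with 23.1, 52.3 and 29.2 in knockout samples, against 42.7, 102 and 772 in heterozygous samples. As with Kcnj16, its highest array was heterozygous replicate 5 (log2 difference -1.83, limma adjusted p = 0.4004). Its knockout mean, 5.63 on the log2 scale, was below the 5.90 of the filter, so Aqp4 passed through its heterozygous values and its p is no support. The next in rank were Lin7b, a scaffold protein (log2 difference 0.52), Dmd, the membrane anchor dystrophin (-0.295), and Dag1, its partner dystroglycan (-0.17).

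The potassium route from the spiral ligament to the endolymph was mostly close to 0. Of 15 genes listed, 12 were on the array and past the filter, with a median log2 difference of -0.02, and none passed with limma over all tested probe sets. An unadjusted p under 0.05 was found for 3, all lower in knockout samples and without overlap between groups. Over all tested probe sets 11.6% had such a p, 2.47% being lower in knockout samples. The groups also did not overlap for Slc12a2, the marginal cell cotransporter, and Atp1b1, a sodium pump subunit. Both were higher in knockout samples (log2 differences 0.18 and 0.17). In total 5 of 12 did not overlap, where 17.0% of all tested probe sets did not. The list was chosen with earlier results of these data known, so these counts are a description and no support. Kcnab1, a beta subunit of voltage-gated potassium channels, gave 31.7, 23.7 and 46.4 in knockout samples, against 124, 144 and 117 in heterozygous samples (log2 difference -1.55, limma adjusted p = 0.209). Its knockout mean, 5.62 on the log2 scale, was below the 5.90 of the filter, so Kcnab1 passed the filter through its heterozygous values and its count among the 3 is no support. Kcnma1, the large-conductance calcium-activated channel, had a log2 difference of -0.62, and Kcnk2, a background potassium channel, -1.29 (limma adjusted p = 0.370 for both). The next in rank was Bsnd, which encodes the accessory subunit barttin of chloride channels, with -0.47 (limma adjusted p = 0.444). The 8 marginal cell genes on the array, of 10 listed, summed to 40681 to 47576 in knockout samples, against 40729 to 43007 in heterozygous samples.

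Genes whose pattern over the 6 arrays was most like that of Kcnj10 were sought among 12425 other named genes. Likeness was the root mean square difference of log2(signal + 16) after each gene was centred on its own mean. The nearest was Slc1a4, a transporter of neutral amino acids, at 0.0531, where Kcnj10 itself varied by 0.247 about its mean. Polrmt, the mitochondrial RNA polymerase, followed at 0.0629, then the zinc finger gene Zfp764 at 0.0642, Tmc4, a channel-like membrane protein, at 0.0725 and Spry2, an inhibitor of growth factor signalling, at 0.0732. None of these 5 is among the intermediate cell markers listed. Nearest to Kcnj13 were Gdf5, a growth and differentiation factor, at 0.0641, Slc4a4, a sodium bicarbonate cotransporter, at 0.113 and Egfl8 at 0.144. Kcnj10 and Kcnj13 differed from each other by 0.424, and the 2 Kcnj16 probe sets by 0.277. With 6 arrays and that many genes, small distances arise readily, and the likeness is a description of these arrays.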

How the data were processed

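The table of the deposited values holds the signal intensity of 45101 probe sets on 6 arrays, on a linear scale, made with GCOS per the submitters' processing notes. The mean without the outer 2% on both sides was 500.002 on every array, and array medians ran from 76.8 to 105. No detection calls were used. After 64 control probe sets were left out, the signal was transformed as log2(signal + 16), which understates changes of dim genes, and only probe sets with a mean at or above the 40th percentile (signal 43.9) were tested. The fit used limma 3.58.1 under R 4.3.3 (lmFit and trended eBayes), with two-sided tests and a threshold of 0.05 after adjustment over all 27022. The fit was tested on simulated data with 100 planted changes of each size. It recovered 49 of the 2-fold and 100 of the 4-fold changes, with 19 false calls. No 2 arrays shared more than 0.002% of values. Per-array values relative to markers were compared by exact permutation (scipy 1.17.1).

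Genes were named from the platform annotation, and all 7 member genes matched RefSeq by gene identifier. Promoters were found for 6 of the 7 genes. The brightest tested probe set stood for a listed gene. Named genes were all member probe sets, Slc26a4, up to 4 genes per list by p, the nearest patterns, and markers whose values stand beside a result. The members and lists were chosen with earlier results of these data known, so counts over them are descriptions and no support. Alternatives were offsets of 1 and 64, quantile, cyclic loess and median scaling, a 60th percentile filter or none, an untrended variance, array weights and leaving out each array.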

Additional observations from a re-analysis of the deposited data

How the results depend on the processing

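The direction of the Kcnj10, Kcnj13 and Kcnj16 differences was the same in all 15 alternatives, and none passed the threshold in any of them (limma adjusted p from 0.148 to 0.936). The Kcnj10 log2 difference ran from -0.50 to -0.16, with limma adjusted p from 0.224 to 0.919, and relative to the intermediate cell markers from -0.24 to -0.01. Median centring moved the median of all tested probe sets to -0.204, and the -0.50 of Kcnj10 is read against that. The number of the 4 probe sets with an unadjusted p under 0.05 was 1 with all arrays, 0 with cyclic loess scaling and without a variance trend, 3 with median centring, 4 with array weights and 2 of 10 with no filter. The share of all tested probe sets at that p was 11.6% with all arrays, 10.3% with cyclic loess, 11.3% without a variance trend, 16.4% with median centring, 14.1% with array weights, 9.55% with no filter and 5.31% to 19.3% over the arrays left out. Over the arrays left out the number of the 4 probe sets at that p ran from 0 (without knockout replicate 2 or heterozygous replicate 3) to 3 (without heterozygous replicate 1). All of these were lower in knockout samples. Over the whole table the count of probe sets passing limma was 1, Fgf18, with all arrays, 3 with quantile scaling, 2 with cyclic loess, 3 with median centring, 0 with no filter, 0 with the 60th percentile filter and 25 with array weights, and 0 to 13 over the arrays left out (13 without knockout replicate 4). The cause was not tested. No paired analysis was made because the labels do not say whether samples of the 2 groups were paired.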

Other observations

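Kcnj8 and its regulatory subunit Abcc9, which form the ATP-sensitive channel of pericytes, were not called between genotypes, and their levels varied from array to array. Abcc9 gave 417, 384 and 725 in knockout samples, against 275, 642 and 463 in heterozygous samples (log2 difference 0.16, limma adjusted p = 0.886). The 7 endothelial genes listed, all on the array and past the filter, summed to 5472, 2581 and 8319 in knockout samples, against 5206, 9444 and 5610 in heterozygous samples. Kcnj8 was lowest in knockout replicate 4, the array with the lowest endothelial sum, and highest in knockout replicate 6. The part of vessel content in these levels was not tested.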
